A study of Mus musculus with 20 samples.

Results

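Salivary glands of C57BL/6J mice at 12 weeks of age were compared with those of mice at 4 weeks, to follow the gland from the weeks around weaning to adulthood. The arrays were chosen by the age in their titles, which gave 5 mice at 4 weeks and 5 at 12 weeks, or 10 of the 20 arrays of the series. All were described as male mice of this strain, with no treatment or allele named, whose glands were freed of lymph nodes. Biotin-labelled cRNA was hybridized to Affymetrix mouse genome arrays, and values are log2 signals after RMA (robust multi-array average), a summary of the probes of a probe set. A difference of 1 on this scale is a 2-fold difference in signal, and 18194 genes were each represented by their brightest probe set on average over the 20 arrays. Each array was described as a biological replicate, and the labels do not say which of the major salivary glands were pooled or in what parts.

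The salivary glands of the mouse go on developing after birth. In the submandibular gland, the terminal tubules of the newborn give way to acini that secrete fluid and mucins. At puberty, part of the striated ducts turns, under androgens, into granular convoluted tubules, which are more prominent in males and make kallikreins, growth factors and renin. Plasma cells that settle in the stroma from weaning onwards make the IgA that the epithelium carries into saliva.

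The arrays went against their labels in 1 respect, and some mice stood apart from their group, which is given first. Xist, the RNA that coats the inactive X chromosome of females, had signals between 8.96 and 10.36 at 4 weeks and between 9.41 and 10.72 at 12 weeks, above at least 96.3% of the genes of each array, which goes against the sex given in the labels. Of the Y chromosome, Eif2s3y had signals between 2.08 and 2.47 at 4 weeks and between 2.26 and 2.97 at 12 weeks, above at most 4.60% of the genes. By their brightest probe sets, the other 2 Y-linked genes measured were not at the bottom of the arrays. Kdm5d lay between 3.65 and 4.46 over both ages, above 12.4% to 26.9% of the genes, and Uty between 4.58 and 5.26, above 30.9% to 45.1%. Other probe sets of Uty had means of 2.01 to 2.50 at 4 weeks and 2.09 to 2.55 at 12 weeks. Those of Kdm5d had 3.63 and 3.08 at 4 weeks and 3.53 and 3.35 at 12 weeks. Other probe sets of Xist had means of 6.59 and 5.38 at 4 weeks and of 6.38 and 5.86 at 12 weeks. The high Xist held for all 10 arrays, so that no value can be given without them. The defining genes of salivary acini were present at both ages, as Aqp5, the water channel of acinar cells, lay between 9.61 and 10.87 at 4 weeks and between 9.97 and 10.56 at 12 weeks. Prol1, a secreted proline-rich protein, lay between 13.28 and 13.68 and between 13.51 and 13.77.

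Products of particular glands varied between mice of the same age. Amy1, the salivary amylase, had signals of 11.80, 5.53, 5.88, 8.83 and 11.71 in mice 1 to 5 at 4 weeks and of 4.96, 11.35, 5.36, 5.08 and 4.18 in mice 1 to 5 at 12 weeks. Cst10, a cystatin, had 10.50, 5.39, 6.00, 8.66 and 9.99 at 4 weeks and 4.37, 9.19, 4.90, 4.84 and 4.45 at 12 weeks. Both were thus high in mice 1, 4 and 5 at 4 weeks and in mouse 2 alone at 12 weeks. Smr3a, a secreted prohormone-like protein, followed the same mice, with 12.53, 7.51, 7.28, 10.40 and 12.18 at 4 weeks and 6.28, 11.01, 6.86, 5.56 and 6.32 at 12 weeks. The mean of these 3 genes was 8.95 ± 2.60 (SD, n = 5 mice) at 4 weeks and 6.31 ± 2.36 at 12 weeks (two-sided exact permutation test over 252 labelings, p = 0.111, after adjustment over 5 measures of the arrays p = 0.496). A fit that takes this mean into account was added once the values had been seen, and is given beside the genes that passed the test.

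Of the 18194 genes, 12 were higher and 5 were lower in the older mice by the test used throughout, limma over the 20 arrays with a Benjamini-Hochberg adjusted p under 0.05. These 17 are 0.0934% of the genes tested, of which 0.066% rose and 0.0275% fell. By an unadjusted p under 0.05, the looser limit used to describe lists, 913 genes were higher (5.02%) and 730 lower (4.01%), or 9.03% in all. Counts of list members by unadjusted p are to be read against these shares. Positive log2 fold changes made up 51.3% of the genes and negative ones 48.7%, and the median log2 fold change of all genes was 0.01. The genes that rose were 7 kallikreins, an immunoglobulin kappa variable gene, Fgf9, Ifi207, Agfg2 and Zfp612. The genes that fell were Col3a1, Dusp4, Tcfl5, Mki67 and Tsen15. With the mean of Amy1, Cst10 and Smr3a as a covariate, Klk1b16, Klk1b5, Klk1b21, Klk1b1, Egfbp2 and Dusp4 passed. The other 11 of the 17 did not (adjusted p from 0.0571 to 0.219), and their log2 fold changes were 90.02% to 109% of those without it. In all 17 the values of the 5 mice at 12 weeks did not overlap those at 4 weeks, which was also the case for 1.57% of all genes in the higher direction and 0.78% in the lower direction.

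**Figure D1:**
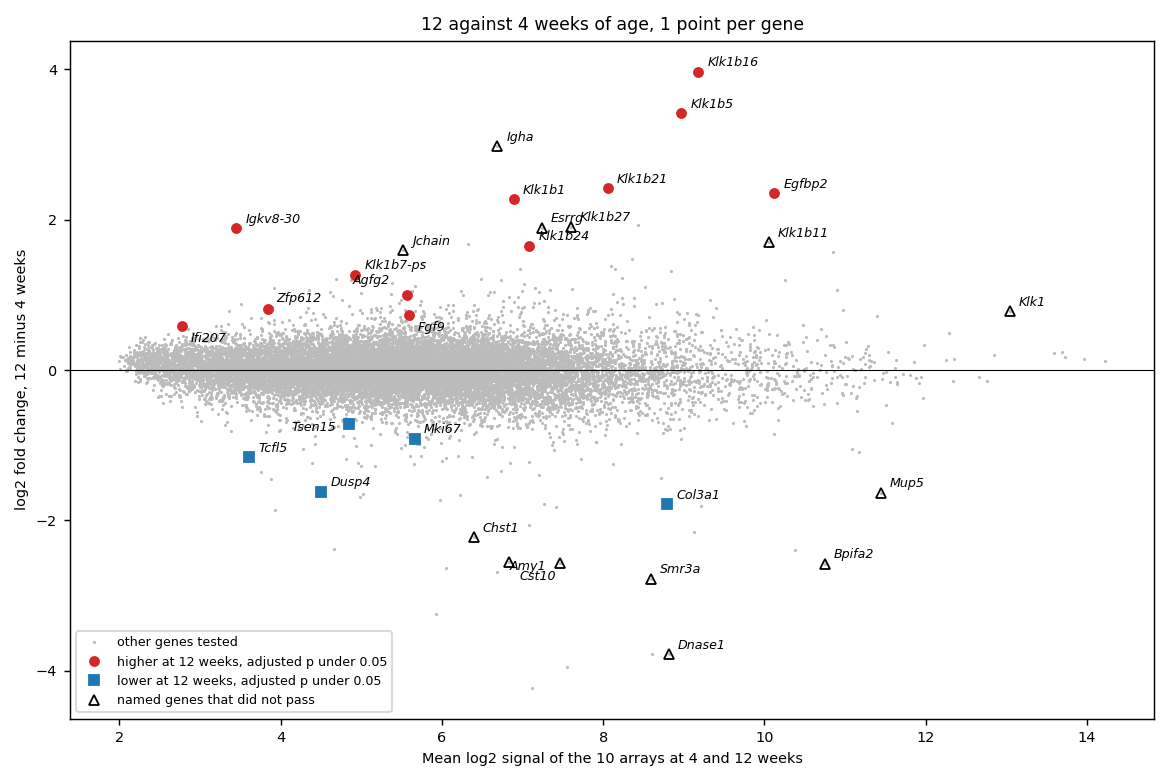
log2 fold change from 4 to 12 weeks (vertical axis, 12 minus 4 weeks) against the mean log2 signal of the 10 arrays (horizontal axis), with 1 point per gene tested. Red circles and blue squares are the 12 genes that rose and the 5 that fell, open triangles are named genes that did not pass the test, and Klk1b16 lies highest at 3.97.

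The glandular kallikreins rose most. These are serine proteases of the granular convoluted tubules that cut prohormones and growth factor precursors, and their genes lie side by side on chromosome 7. Of 11 measured members (Klk1, the Klk1b genes, Egfbp2 and the pseudogene Klk1b7-ps), 7 passed the test, all in the direction of higher signal at 12 weeks, against 0.066% of all genes. This group was taken by gene symbol after the values had been seen. In the list of kallikreins without Egfbp2 and Klk1b7-ps, 5 of 9 measured genes passed. Values of 10 of the 11 did not overlap between the ages, and the median log2 fold change was 1.90, with a range from 0.78 to 3.97. In bulk tissue, more cells of a type and more RNA per cell cannot be told apart. Of 10 measured kallikreins outside this group, Klk4 to Klk13, 0 passed the test in either direction and 0 had an unadjusted p under 0.05, with a median of 0.08.

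The stretch before the start of transcription is shown for the 4 genes that passed the test and hold a TTTAAA box there, since their signals moved together and the letters show how alike these promoters are. The sequences are from RefSeq, build GRCm38.p6, plus strand, with the box in capitals.
Klk1b16, chr7:44137161-44137280: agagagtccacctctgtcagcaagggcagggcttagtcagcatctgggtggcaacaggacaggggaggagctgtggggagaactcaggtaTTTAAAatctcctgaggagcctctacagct
Klk1b5, chr7:44216342-44216461: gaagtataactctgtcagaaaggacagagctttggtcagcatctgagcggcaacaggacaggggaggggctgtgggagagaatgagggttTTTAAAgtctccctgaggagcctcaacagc
Klk1b1, chr7:43966628-43966747: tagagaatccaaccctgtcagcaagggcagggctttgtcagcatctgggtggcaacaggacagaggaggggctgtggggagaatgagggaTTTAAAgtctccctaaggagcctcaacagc
Klk1b24, chr7:44188115-44188234: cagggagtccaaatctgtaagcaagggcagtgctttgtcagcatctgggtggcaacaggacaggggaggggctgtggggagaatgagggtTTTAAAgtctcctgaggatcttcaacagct

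The box began 39, 42, 33 and 31 bases before the annotated start of Klk1b16, Klk1b5, Klk1b1 and Klk1b24. In global alignments, 87.7% of the columns of Klk1b16 and Klk1b1 were identical, 88.4% of Klk1b1 and Klk1b24 and 82.3% of Klk1b16 and Klk1b5. Promoters of 9 of the 11 kallikreins were matched by symbol, and TTTAAA, which reads the same on both strands, stood in the 250 bases before the start in 7 of these 9, against 12.1% of 32851 promoters. TGTTCT or its reverse complement AGAACA, the core letters of the steroid receptor element, stood in 1 of the 9, Klk1b24, and in 16.1% of all promoters. A match of letters describes these windows and names no factor.

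Klk1b16, a kallikrein known as gamma-renin, had signals of 7.22, 7.06, 6.66, 7.14 and 7.90 in the mice at 4 weeks and of 11.47, 10.48, 11.23, 11.31 and 11.34 at 12 weeks. It rose by 3.97 on the log2 scale (SE, the standard error, 0.47, limma adjusted p = 0.000339). All 5 mice at 12 weeks were above all 5 at 4 weeks by more than the spread of either age, and mouse 2 was the lowest at 12 weeks. Klk1b5 had 6.81, 7.47, 7.21, 7.40 and 7.42 at 4 weeks and 11.15, 9.38, 10.57, 11.01 and 11.27 at 12 weeks, and rose by 3.41 (SE 0.40, limma adjusted p = 0.000339). Its probe set can take up cRNA of related genes, but a second probe set of the gene had a log2 fold change of 3.58.

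Klk1b21 had signals of 6.36, 7.40, 7.03, 6.66 and 6.79 at 4 weeks and of 9.86, 8.07, 8.69, 9.95 and 9.77 at 12 weeks, a rise of 2.42 (SE 0.33, limma adjusted p = 0.00164). The ages did not overlap, although mouse 2 at 12 weeks came near mouse 2 at 4 weeks. Klk1b1 had 5.83, 5.88, 5.75, 5.64 and 5.67 at 4 weeks and 8.34, 7.08, 7.98, 8.38 and 8.34 at 12 weeks, a rise of 2.27 (SE 0.28, limma adjusted p = 0.000588). The mice at 4 weeks lay close together, with an SD of 0.10 against 0.55 at 12 weeks. Egfbp2, which encodes a protein that binds epidermal growth factor, had 8.54, 9.37, 8.88, 8.57 and 9.38 at 4 weeks and 11.70, 10.41, 11.18, 11.69 and 11.51 at 12 weeks, a rise of 2.35 (SE 0.34, limma adjusted p = 0.0035).

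Klk1b24 had signals of 6.17, 6.22, 6.28, 6.33 and 6.28 at 4 weeks and of 8.40, 6.95, 7.77, 8.21 and 8.23 at 12 weeks, a rise of 1.66 (SE 0.31, limma adjusted p = 0.0403). Klk1b7-ps, a pseudogene of the cluster, had 4.65, 4.43, 3.85, 4.33 and 4.21 at 4 weeks and 6.06, 5.02, 5.37, 5.77 and 5.58 at 12 weeks, and rose by 1.27 (SE 0.23, limma adjusted p = 0.0403). Both had mouse 2 as the lowest at 12 weeks, and with the mean of Amy1, Cst10 and Smr3a as a covariate neither passed the test, at 1.69 and 1.37. Each passed in 1 of the 10 fits that left out a mouse (adjusted p of both up to 0.146, without mouse 1 at 12 weeks). Over all settings and fits the log2 fold change stayed between 1.54 and 1.90 for Klk1b24 and between 1.14 and 1.40 for Klk1b7-ps. Klk1b16, Klk1b5, Klk1b21, Klk1b1 and Egfbp2 passed in that fit, in the other 11 settings tried and without any 1 of the 10 mice.

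The other 4 kallikreins did not pass the test. Klk1b27 had a log2 fold change of 1.90 (limma adjusted p = 0.192), Klk1b11 of 1.70 (adjusted p = 0.226) and Klk1b8 of 1.34 (adjusted p = 0.228), each with no overlap between the ages. Klk1, the tissue kallikrein proper, had signals of 12.32, 12.39, 12.87, 12.98 and 12.72 at 4 weeks and of 13.75, 12.65, 13.48, 13.55 and 13.75 at 12 weeks, with a log2 fold change of 0.78 (limma adjusted p = 0.564) and of 0.80, 0.69 and -0.03 by 3 other probe sets. Mouse 2 at 12 weeks overlapped the mice at 4 weeks here, and it had the lowest signal of its age for 11 of 11 kallikreins. It was also the mouse with high Amy1, Cst10 and Smr3a at 12 weeks. At 4 weeks, where mice 1, 4 and 5 had high Amy1, the lowest kallikrein was in mouse 1 for 6 genes, in mouse 3 for 4 and in mouse 4 for 1. The members are near-identical in places, so signals of single kallikreins may hold cRNA of others, and their probe sets are not independent measures.

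**Figure D2:**
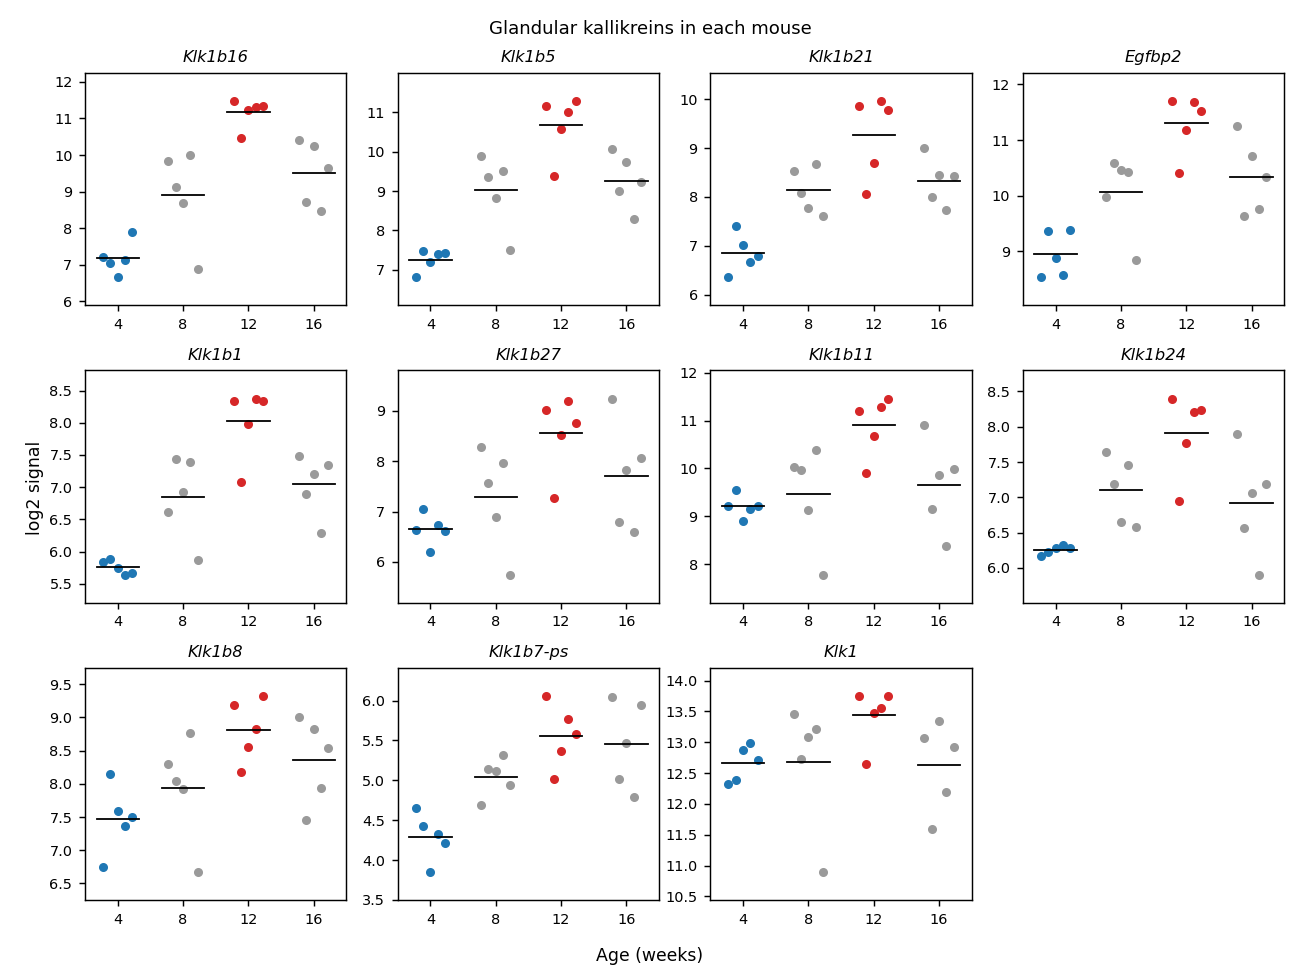
log2 signal (vertical axis) of the 11 measured glandular kallikreins by age in weeks, where a point is 1 mouse and a bar is the mean of 5 mice. Mice at 4 weeks are blue, those at 12 weeks red and those at 8 and 16 weeks grey, and Klk1b16 lies between 6.66 and 7.90 at 4 weeks and between 10.48 and 11.47 at 12 weeks.

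Over the course of the 4 ages, the mean signal of Klk1b16 was 7.19, 8.90, 11.17 and 9.50 at 4, 8, 12 and 16 weeks. That of Klk1b5 was 7.26, 9.02, 10.68 and 9.26, and that of Egfbp2 was 8.95, 10.06, 11.30 and 10.34. Each of these was highest at 12 weeks, and at 16 weeks lay between its means at 4 and 12 weeks. Some other lists of bright genes moved alike from 8 weeks on, but not from 4 to 8 weeks. Medians from 8 to 12 and from 12 to 16 weeks were 1.18 and -0.96 for the 11 kallikreins. They were 0.67 and -1.01 for cytosolic ribosomal protein genes and 0.73 and -0.97 for those of the endoplasmic reticulum and secretory pathway. From 4 to 8 weeks, the median was 0.85 for the kallikreins, -0.74 for the ribosomal protein genes and -0.91 for the secretory pathway. The brightest decile of genes had a median of -0.49 from 4 to 8 weeks. Whether the course of the kallikreins differs from that of bright genes was not tested. In all 12 genes that rose, the mean at 8 weeks lay between those at 4 and 12 weeks, and in 11 of them so did the mean at 16 weeks, Agfg2 being the exception. These genes were picked for their difference between 4 and 12 weeks, so the counts describe the course and are not a test.

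Other products of the tubules did not pass the test. Of 9 measured, 0 passed in either direction, 2 were higher and 1 was lower by unadjusted p, and the median log2 fold change was 0.13. The range was from -2.78 for Smr3a, which is also on this list and varied between mice as given above, to 1.07 for Crisp3. Egf, the epidermal growth factor of the granules, had 8.25, 8.21, 9.01, 9.19 and 9.60 at 4 weeks and 9.47, 8.97, 9.91, 10.60 and 9.99 at 12 weeks, with a log2 fold change of 0.94 (limma adjusted p = 0.515). Crisp3, a cysteine-rich secretory protein, had a log2 fold change of 1.07 (limma adjusted p = 0.539), and mouse 2 at 12 weeks had 10.05 against 11.57 or more in the others. Mup5, a major urinary protein, had 12.06, 11.47, 12.67, 13.03 and 12.10 at 4 weeks and 10.94, 10.65, 9.92, 11.03 and 10.63 at 12 weeks, with a log2 fold change of -1.63 (adjusted p = 0.361). The ages did not overlap for Mup5, and they did for Egf and Crisp3.

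Mki67, which marks cells in cycle, had signals of 6.12, 6.02, 5.98, 6.08 and 6.41 at 4 weeks and of 5.15, 5.22, 5.22, 5.30 and 5.17 at 12 weeks. It fell by 0.91 (SE 0.16, limma adjusted p = 0.034), with every mouse at 12 weeks below every mouse at 4 weeks. It was the 1 of 56 measured cell cycle genes that passed the test, against 0.0275% of all genes. At an unadjusted p under 0.05, 13 of the 56 were lower (23.2%, against 4.01% of all genes) and 0 were higher, and the median log2 fold change was -0.15.

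Ccna2, cyclin A2 of the S and G2 phases, had 6.10, 6.26, 5.54, 5.56 and 5.70 at 4 weeks and 5.19, 5.18, 4.50, 5.09 and 5.12 at 12 weeks, with a log2 fold change of -0.82 (limma adjusted p = 0.0861). The ages did not overlap, but a second probe set of Ccna2 had the opposite sign, with 0.15. Rrm2, the small subunit of ribonucleotide reductase, had 6.30, 5.85, 6.31, 6.25 and 6.51 at 4 weeks and 5.48, 5.11, 5.06, 5.45 and 5.69 at 12 weeks, with -0.89 (adjusted p = 0.206). Other probe sets of Rrm2 had -0.09 and -0.22, with overlap between the ages. Ccnb2, a cyclin of mitosis, had -0.80 (adjusted p = 0.124), Stmn1, which destabilizes microtubules, -0.98 (adjusted p = 0.311), Cdc20, an activator of the anaphase complex, -0.70 (adjusted p = 0.349) and Prc1, a protein of the spindle midzone, -0.57 (adjusted p = 0.225). None of these 6 passed the test, and values of the 2 ages did not overlap in any of them. They were named for low p-values or after their values were seen. Of the 56 genes, 8 had no overlap in the lower direction, against 0.78% of all genes, and 0 in the higher, against 1.57%. Log2 fold changes were negative for 40 of the 56 and positive for 16, up to 0.62. With the spread of signal of each array as a covariate, Mki67, Ccna2, Ccnb2, Rrm2 and Stmn1 passed, whereas Mki67 passed in 0 of the 10 fits that left out a mouse (highest adjusted p = 0.113, without mouse 1 at 12 weeks). Its log2 fold change stayed between -0.95 and -0.84 in every setting and fit, and was -0.88 with the mean of Amy1, Cst10 and Smr3a as a covariate (adjusted p = 0.106).

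The summed level of the list lay between 5.18 and 5.26 at 4 weeks and between 5.00 and 5.05 at 12 weeks, as the mean log2 signal of its 56 genes in each mouse. These ranges did not overlap. H1f2, a linker histone, had 8.96, 8.94, 8.86, 10.19 and 10.21 at 4 weeks and 7.82, 7.58, 8.23, 8.67 and 7.69 at 12 weeks, with a log2 fold change of -1.43 (limma adjusted p = 0.423).

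The fibrillar collagen gene Col3a1 had the largest fall among the genes that passed. Its signals were 9.40, 9.29, 9.05, 10.48 and 10.21 at 4 weeks and 7.57, 7.58, 7.66, 8.46 and 8.25 at 12 weeks, and it fell by 1.78 (SE 0.34, limma adjusted p = 0.0441). A second probe set had a log2 fold change of -0.75. Of 34 measured collagens and collagen-processing genes it was the 1 that passed, and the median was -0.12. By unadjusted p 7 were lower (20.6%, against 4.01% of all genes) and 1 was higher. Lox, which cross-links collagen and elastin, had 4.91, 4.64, 5.25, 5.53 and 5.63 at 4 weeks and 4.50, 4.37, 4.56, 4.34 and 4.53 at 12 weeks, with -0.73 (adjusted p = 0.173), and other probe sets with -0.12 and 0.23. Col5a2 had -0.62 (adjusted p = 0.258) and 0.35 by a second probe set, and Col1a1 had -0.80 (adjusted p = 0.258), with 1 mouse at 4 weeks within the range at 12 weeks.

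The mean of Col3a1 was 9.69, 7.48, 7.90 and 7.37 at 4, 8, 12 and 16 weeks, and was thus low from 8 weeks on. Without any 1 of the 10 mice, Col3a1 did not pass the test, with adjusted p-values from 0.0516 to 0.146 and log2 fold changes from -1.94 to -1.58, nor did it with the mean of Amy1, Cst10 and Smr3a as a covariate (-1.60, adjusted p = 0.219).

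Of 22 basement membrane genes 0 passed the test, 6 were lower by unadjusted p (27.3%, against 4.01% of all genes) and the median was -0.23. Col4a2, a chain of the collagen IV network, had 6.28, 6.16, 6.63, 7.19 and 7.59 at 4 weeks and 5.38, 5.60, 5.49, 6.03 and 5.67 at 12 weeks, with a log2 fold change of -1.14 (limma adjusted p = 0.166) and no overlap between the ages. The laminin chains Lamc1 and Lamb2 had -0.55 and -0.58 (adjusted p = 0.379 and 0.508), and Col4a5 had -0.60 (adjusted p = 0.451). Second probe sets of Lamc1 and Col4a5 had -0.01 and -0.06. Among 49 fibroblast and other matrix genes 0 passed, 3 were lower by unadjusted p and the median was -0.06, and it turned to 0.03 when probe sets were averaged. Among 28 endothelial and mural genes 0 passed and 5 were lower, with Aplnr, the apelin receptor, at -1.14 (adjusted p = 0.364) and a median of -0.09 for the list. A second probe set of Aplnr had -0.07.

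The other 3 genes that fell have no place in these lists. Dusp4, a phosphatase that inactivates MAP kinases, had signals of 4.91, 5.06, 5.44, 4.76 and 6.40 at 4 weeks and of 3.38, 3.81, 3.82, 3.99 and 3.47 at 12 weeks. It fell by 1.62 (SE 0.24, limma adjusted p = 0.00425), with no overlap between the ages, and it passed without any 1 of the 10 mice. It was the 1 of 24 dual specificity phosphatases that passed, and the median of this family was -0.16. The mean of Dusp4 was 5.31 at 4 weeks and 3.72, 3.70 and 3.52 at 8, 12 and 16 weeks, a level reached by 8 weeks.

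Tcfl5, a basic helix-loop-helix transcription factor, had 3.85, 3.80, 4.41, 3.74 and 5.16 at 4 weeks and 3.37, 2.92, 2.92, 2.97 and 2.98 at 12 weeks, a fall of 1.16 (SE 0.22, limma adjusted p = 0.0441). Tsen15, a subunit of the tRNA splicing endonuclease, had 5.33, 5.23, 5.08, 5.26 and 5.14 at 4 weeks and 4.49, 4.54, 4.28, 4.41 and 4.75 at 12 weeks, a fall of 0.71 (SE 0.14, limma adjusted p = 0.0441). Every mouse at 12 weeks lay below every mouse at 4 weeks for both genes, and each passed in only 1 of the 10 fits that left out a mouse. Neither passed with the mean of Amy1, Cst10 and Smr3a as a covariate, where Tcfl5 had -1.17 (adjusted p = 0.129) and Tsen15 -0.65 (adjusted p = 0.219).

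**Figure D3:**
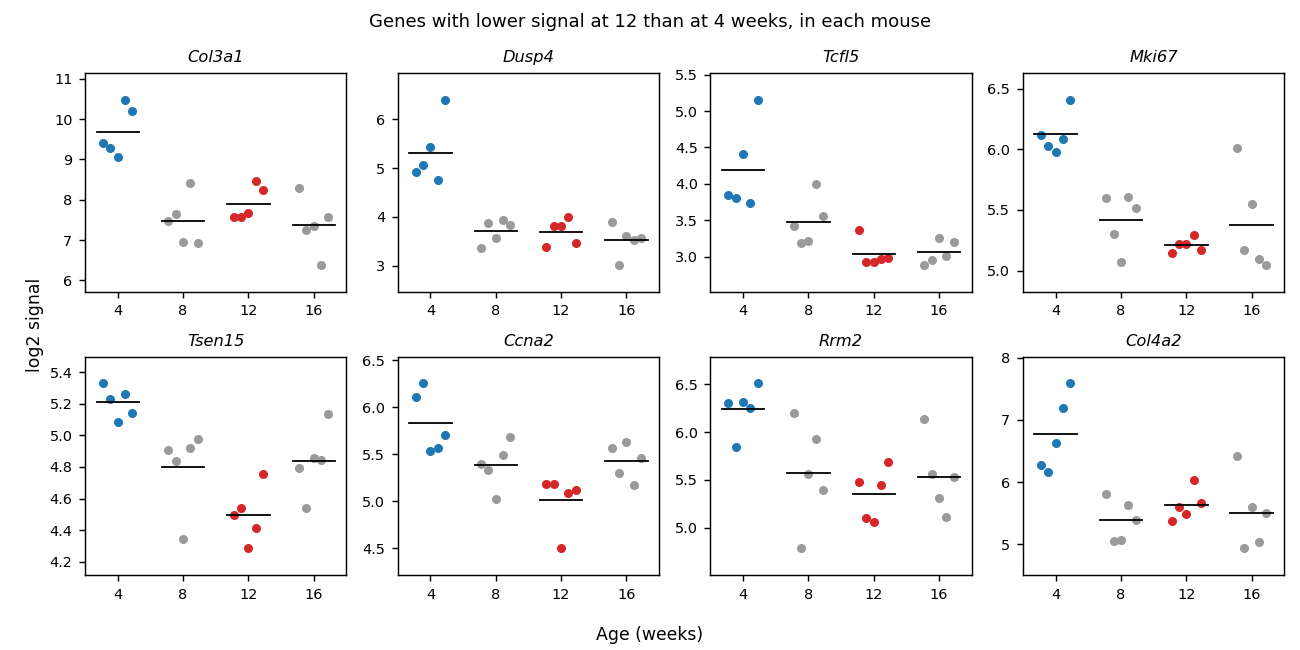
log2 signal (vertical axis) of the 5 genes that fell and of Ccna2, Rrm2 and Col4a2, which did not pass the test, by age in weeks, where a point is 1 mouse and a bar is the mean of 5 mice. Mice at 4 weeks (blue) lie above those at 12 weeks (red) in every panel, and Dusp4 and Col3a1 are at their lower level from 8 weeks on.

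Igkv8-30, a kappa variable gene, had signals of 2.64, 2.46, 2.60, 2.38 and 2.44 at 4 weeks and of 4.82, 4.19, 4.48, 5.03 and 3.44 at 12 weeks, and it rose by 1.89 (SE 0.36, limma adjusted p = 0.0441). All mice at 12 weeks were above those at 4 weeks, and mouse 5 was the lowest. The gene passed in 7 of 11 other settings and in 1 of the 10 fits that left out a mouse (highest adjusted p = 0.159, without mouse 4 at 12 weeks), with a log2 fold change between 1.73 and 2.13 throughout. Its probe set can take up cRNA of other kappa genes, of which it was the 1 of 13 measured that passed the test, with a median of 0.08 for the 13. Igha, the heavy chain of IgA, had 4.80, 5.01, 5.86, 5.20 and 5.12 at 4 weeks and 9.04, 8.36, 7.49, 10.31 and 5.68 at 12 weeks, with a log2 fold change of 2.98 (SE 0.64, limma adjusted p = 0.103). Mouse 5 at 12 weeks was the 1 that overlapped the mice at 4 weeks, and without it the log2 fold change was 3.60 (adjusted p = 0.0109). That mouse was singled out after its value had been seen. When any other mouse was left out, Igha did not pass (limma adjusted p from 0.121 to 0.306).

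Jchain, which joins IgA into dimers, had 5.06, 4.86, 4.83, 4.60 and 4.24 at 4 weeks and 6.06, 6.44, 5.82, 8.01 and 5.24 at 12 weeks. Its log2 fold change was 1.59 (limma adjusted p = 0.113), and 1.86 without mouse 5 at 12 weeks (adjusted p = 0.0431). When any other mouse was left out, Jchain did not pass (limma adjusted p from 0.141 to 0.234). Mouse 4 was the highest at 12 weeks and mouse 5 the lowest for Igha, Jchain and Igkv8-30. Pou2af1, a coactivator of immunoglobulin transcription, had 3.61, 3.40, 3.12, 3.39 and 2.92 at 4 weeks and 4.01, 3.66, 4.25, 4.16 and 3.81 at 12 weeks, with 0.69 (adjusted p = 0.166) and no overlap. Pigr, the epithelial receptor that carries IgA into saliva, had 0.75 (adjusted p = 0.611). Of 23 measured genes of B and plasma cells 0 passed the test, 3 were higher at an unadjusted p under 0.05 (13.0%, against 5.02% of all genes), 0 were lower and the median was 0.12.

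Mean signals of Igha were 5.20, 6.39, 8.17 and 6.78 at 4, 8, 12 and 16 weeks, and those of Igkv8-30 were 2.50, 3.22, 4.39 and 3.05. Both were highest at 12 weeks. At 12 weeks, mouse 5 had the highest Klk1b5 and the lowest Igha.

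**Figure D4:**
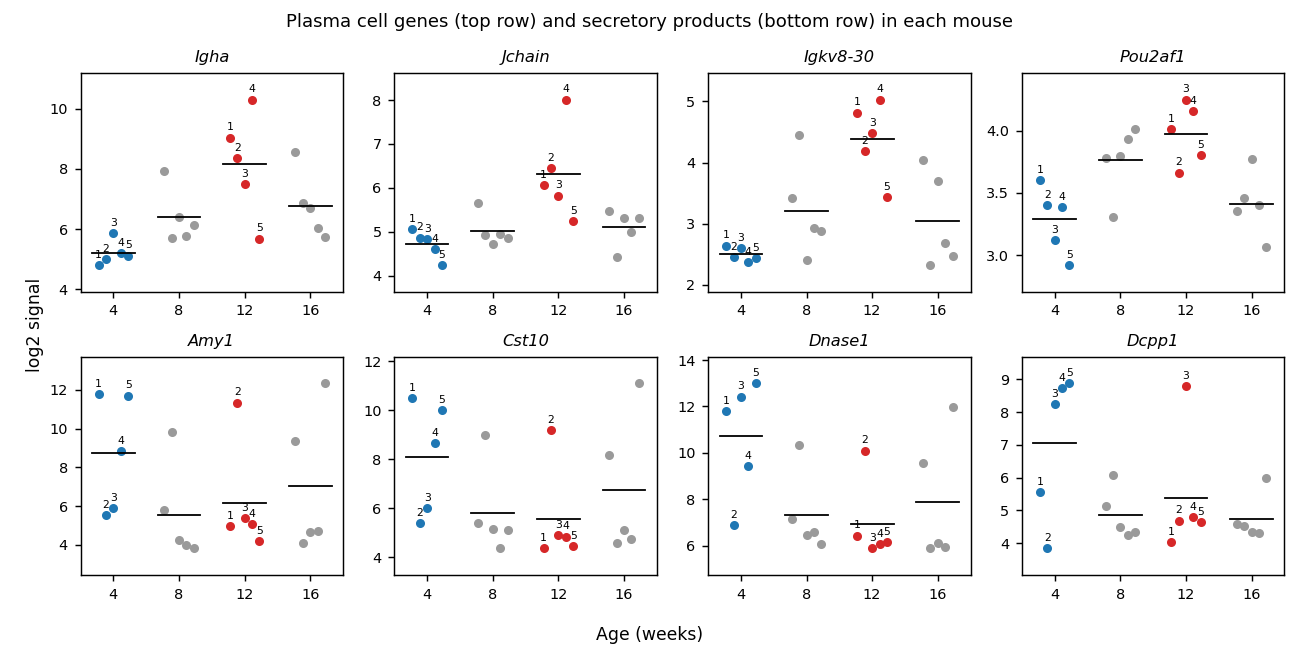
log2 signal (vertical axis) of plasma cell genes (top row) and of secretory products (bottom row) by age in weeks, where a point is 1 mouse, numbered at 4 and 12 weeks, and a bar is the mean of 5 mice. Igha lies between 4.80 and 5.86 at 4 weeks and between 5.68 and 10.31 at 12 weeks, and Amy1, Cst10 and Dnase1 are high in mouse 2 alone at 12 weeks.

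Ifi207, of the interferon-inducible Ifi200 family of nuclear DNA sensors, had signals of 2.35, 2.43, 2.50, 2.54 and 2.58 at 4 weeks and of 2.93, 2.96, 3.02, 3.23 and 3.19 at 12 weeks and rose by 0.59 (SE 0.10, limma adjusted p = 0.0202). All mice at 12 weeks were above those at 4 weeks. The signals of Ifi207 were low, as the median gene of each of the 10 arrays lay between 5.41 and 5.52. The filter for low signal removed Ifi207, so that setting gave no value for it. It passed in 6 of 11 other settings and in 5 of the 10 fits that left out a mouse. Its log2 fold change lay between 0.53 and 0.62 throughout. It was the 1 of 7 measured family members that passed, and the median was 0.59. By unadjusted p 5 of the 7 were higher (71.4%, against 5.02% of all genes). The family was taken after the values had been seen. Mndal had 5.01, 4.92, 4.85, 5.24 and 5.07 at 4 weeks and 5.56, 6.42, 5.73, 6.19 and 5.65 at 12 weeks, with 0.89 (adjusted p = 0.113), and Ifi213 and Ifi209 had 0.93 and 0.65 (adjusted p = 0.317 and 0.226). Some of these genes are close relatives, and their probe sets may share targets. Among 37 interferon response genes 0 passed, and the median was 0.04. By unadjusted p 6 were higher (16.2%, against 5.02% of all genes) and 3 lower (8.11%, against 4.01%).

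Of 33 T and NK cell genes 0 passed the test, and the median was 0.09. By unadjusted p 4 were higher (12.1%, against 5.02% of all genes) and 0 lower. Klrd1, a receptor chain of NK cells, had 4.65, 4.88, 5.24, 5.26 and 4.88 at 4 weeks and 6.04, 5.80, 5.10, 5.87 and 6.08 at 12 weeks, with 0.80 (adjusted p = 0.226), and the chemokine Ccl5 had 0.48 (adjusted p = 0.393). Both overlapped between the ages. Of 32 macrophage and dendritic cell genes 0 passed, 1 was higher and 2 were lower, and Cd68, a lysosomal glycoprotein of macrophages, had 4.96, 4.46, 4.06, 4.33 and 4.07 at 4 weeks and 3.53, 3.27, 3.88, 3.59 and 3.57 at 12 weeks, with -0.81 (adjusted p = 0.147) and no overlap. Among 17 antigen presentation genes 0 had an unadjusted p under 0.05 in either direction.

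Genes of secretory products had large negative log2 fold changes that did not pass the test. Dnase1, a secreted nuclease, had signals of 11.78, 6.88, 12.42, 9.43 and 13.01 at 4 weeks and of 6.43, 10.09, 5.89, 6.05 and 6.14 at 12 weeks, with a log2 fold change of -3.78 (SE 1.26, limma adjusted p = 0.401). Mouse 2 was high at 12 weeks and mouse 2 low at 4 weeks, so the ages overlapped. Amy1 and Cst10 had -2.56 and -2.56 (adjusted p = 0.676 and 0.564). Of 12 measured serous products 0 passed, 2 were lower by unadjusted p and the median was -0.35. The SD of Dnase1 was 2.53 at 4 weeks and 1.78 at 12 weeks, and that of Amy1 was 3.03 and 2.92. In size, the log2 fold change of Dnase1 was larger than its SD at either age, and that of Amy1 was smaller. Neither gene passed the test after adjustment over all genes, which does not by itself place a difference within the spread between mice.

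Products of the neonatal terminal tubules, the secretory cells of the newborn gland, had a median log2 fold change of -1.35 over 4 measured genes, of which 0 passed. Smgc, a mucin-like protein of these cells, had 12.04, 11.90, 11.98, 11.88 and 11.89 at 4 weeks and 11.48, 11.03, 11.17, 11.39 and 11.10 at 12 weeks, with -0.70 (SE 0.26, limma adjusted p = 0.451). The ages did not overlap, and the mean of Smgc was 11.94, 11.12, 11.23 and 10.20 at 4, 8, 12 and 16 weeks. Dcpp1, a demilune protein, had 5.55, 3.84, 8.25, 8.74 and 8.89 at 4 weeks and 4.03, 4.69, 8.79, 4.79 and 4.64 at 12 weeks, with -1.67 (adjusted p = 0.588). It was high in mice 3 to 5 at 4 weeks and in mouse 3 at 12 weeks. Its relative Dcpp3 had -1.04 (adjusted p = 0.867) and Bpifa2, the parotid secretory protein, -2.58 (adjusted p = 0.631). Among 13 mucous acinar genes 0 passed and 3 were lower at an unadjusted p under 0.05, with Galnt12, an enzyme of mucin glycosylation, at -1.44 (adjusted p = 0.316) and Agr2, a disulfide isomerase of mucous cells, at -1.22 (adjusted p = 0.507).

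Fgf9, a growth factor of epithelium and mesenchyme, had signals of 5.47, 5.40, 5.24, 5.15 and 4.84 at 4 weeks and of 6.00, 5.71, 6.21, 5.84 and 6.00 at 12 weeks and rose by 0.73 (SE 0.14, limma adjusted p = 0.0441). It was the 1 of 22 Fgf ligands that passed, and the median of the 22 was 0.04. A second probe set of Fgf9 had a log2 fold change of 0.10, and the gene passed in 3 of 12 other settings and in 0 of the 10 fits that left out a mouse. Of 35 genes of branching signals 0 passed, 4 were higher and 0 lower by unadjusted p, and the median was 0.05.

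Wnt4 had 5.94, 6.10, 5.78, 5.85 and 6.17 at 4 weeks and 7.17, 6.63, 6.34, 7.25 and 6.75 at 12 weeks, with 0.86 (adjusted p = 0.349) and no overlap. Shh had 1.01 (adjusted p = 0.49), Tgfb2 0.86 (adjusted p = 0.534) and Frzb, a secreted Wnt antagonist, 0.60 (adjusted p = 0.44). The second probe sets of Shh and Frzb had -0.22 and -0.0047, and 3 other probe sets of Tgfb2 had 1.17, 0.37 and -0.22.

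Agfg2, an ArfGAP-family protein, had signals of 5.49, 5.00, 5.07, 4.81 and 4.97 at 4 weeks and of 5.94, 6.29, 5.95, 6.12 and 6.03 at 12 weeks, a rise of 1.00 (SE 0.18, limma adjusted p = 0.0391), and a second probe set had 0.20. It passed in 7 of 12 other settings and in 1 of the 10 fits that left out a mouse (highest adjusted p = 0.130, without mouse 2 at 12 weeks). The mean of Agfg2 at 16 weeks, 6.09, was as high as at 12 weeks, 6.06. Zfp612, a zinc finger protein, had 3.58, 3.13, 3.24, 3.60 and 3.60 at 4 weeks and 4.30, 4.57, 3.99, 4.30 and 4.04 at 12 weeks, a rise of 0.81 (SE 0.16, limma adjusted p = 0.0491). Its second probe set had the opposite sign, with -0.26, and the gene passed in 3 of 11 other settings and in 0 of the 10 fits that left out a mouse.

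Genes of ducts and of hormone action had values of both signs. Of 25 duct and ionocyte genes 0 passed, 4 were higher and 1 was lower by unadjusted p, and the median was 0.09. Ascl3, a transcription factor of duct progenitors and ionocytes, had 7.37, 7.49, 6.996, 7.71 and 7.47 at 4 weeks and 8.39, 8.35, 8.24, 8.28 and 7.80 at 12 weeks, with 0.80 (adjusted p = 0.48) and no overlap. Atp6v1c2, a subunit of the proton pump, and Scnn1a, the alpha subunit of the epithelial sodium channel, had 0.46 and 0.47 (adjusted p = 0.398 and 0.488).

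Among 24 genes of steroid and thyroid hormone action 0 passed, and the median was -0.08, with 11 positive and 13 negative log2 fold changes. By unadjusted p 5 were higher (20.8%, against 5.02% of all genes) and 2 lower (8.33%, against 4.01%). Hsd3b2, a 3-beta-hydroxysteroid dehydrogenase, had 0.71 (adjusted p = 0.4), and Pgr, the progesterone receptor, 0.49 (adjusted p = 0.507). The largest change of this list was a negative one, -1.25 for Akr1c18, with overlap between the ages. Esrrg, an orphan nuclear receptor of oxidative tissues, was among the 10 largest rises with no overlap, with 6.56, 6.32, 4.97, 6.22 and 7.39 at 4 weeks and 8.51, 7.92, 7.67, 9.06 and 7.77 at 12 weeks and a log2 fold change of 1.90 (adjusted p = 0.164). Other probe sets of Esrrg had -0.02 and 0.11. Of 23 epithelial transcription factors 0 passed, and Barx2, a homeobox factor of gland development, had -0.88 (adjusted p = 0.349).

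Of 29 imprinted and growth axis genes 0 passed, 2 were higher and 6 lower by unadjusted p, and the median was 0.05. Igf1r, the receptor of insulin-like growth factors, had 7.36, 7.32, 8.02, 7.35 and 7.70 at 4 weeks and 8.03, 8.20, 7.92, 8.48 and 8.05 at 12 weeks, with 0.58 (adjusted p = 0.192), and 4 other probe sets had between -0.11 and 0.18. Igfbp2, a carrier of these factors, and Cdkn1c, an imprinted inhibitor of cyclin-dependent kinases, had -0.80 and -0.51 (adjusted p = 0.349 and 0.357). Of 19 clock genes 0 passed and 4 were higher, with 0.65 for Per2, 0.65 for Per3 and 0.43 for Clock (adjusted p = 0.343, 0.481 and 0.472). Other probe sets of Per2 had 0.73 and -0.18, those of Clock 0.38, 0.27 and -0.07, and those of Per3 0.99, 0.59, 0.41, -0.0075 and -0.46, so that signs were mixed in each.

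Of 44 genes of amino acid synthesis and the ATF4 stress response 0 passed, 8 were lower (18.2%) and 1 was higher by unadjusted p, and the median was -0.33. Psph, the last enzyme of serine synthesis, had 6.15, 5.44, 5.70, 5.85 and 6.93 at 4 weeks and 5.06, 5.02, 4.91, 5.17 and 5.45 at 12 weeks, with -0.89 (adjusted p = 0.349). Sars, the seryl-tRNA synthetase, had 8.70, 8.17, 8.38, 8.50 and 8.82 at 4 weeks and 7.95, 7.59, 7.92, 7.78 and 8.06 at 12 weeks, with -0.66 (adjusted p = 0.349) and no overlap. Mthfd2, a mitochondrial enzyme of folate metabolism, had -0.74 (adjusted p = 0.349), and Slc7a11, the cystine transporter, was the 1 gene on the higher side, with 0.53 (adjusted p = 0.226).

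Genes of the endoplasmic reticulum and secretory pathway had a median of -0.18 over 71 genes, with 0 that passed and 5 lower at an unadjusted p under 0.05. Those of oxidative phosphorylation had a median of -0.10 over 72 genes, with 1 higher and 1 lower. Myoepithelial and basal genes had a median of -0.22 over 19 genes, with 0 that passed and 3 lower, among them Lama3 with -0.59 and Myl9 with -0.92 (adjusted p = 0.386 and 0.481). Trp63, the transcription factor of basal cells, had -0.47 (adjusted p = 0.561). Genes of acinar fluid secretion had a median of 0.08 over 16 genes, with 2 higher and 0 lower. Markers of fat, muscle, nerve, red blood cells, squamous epithelium and mast cells had medians between -0.20 and 0.12, and 0 of them passed the test.

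**Figure D5:**
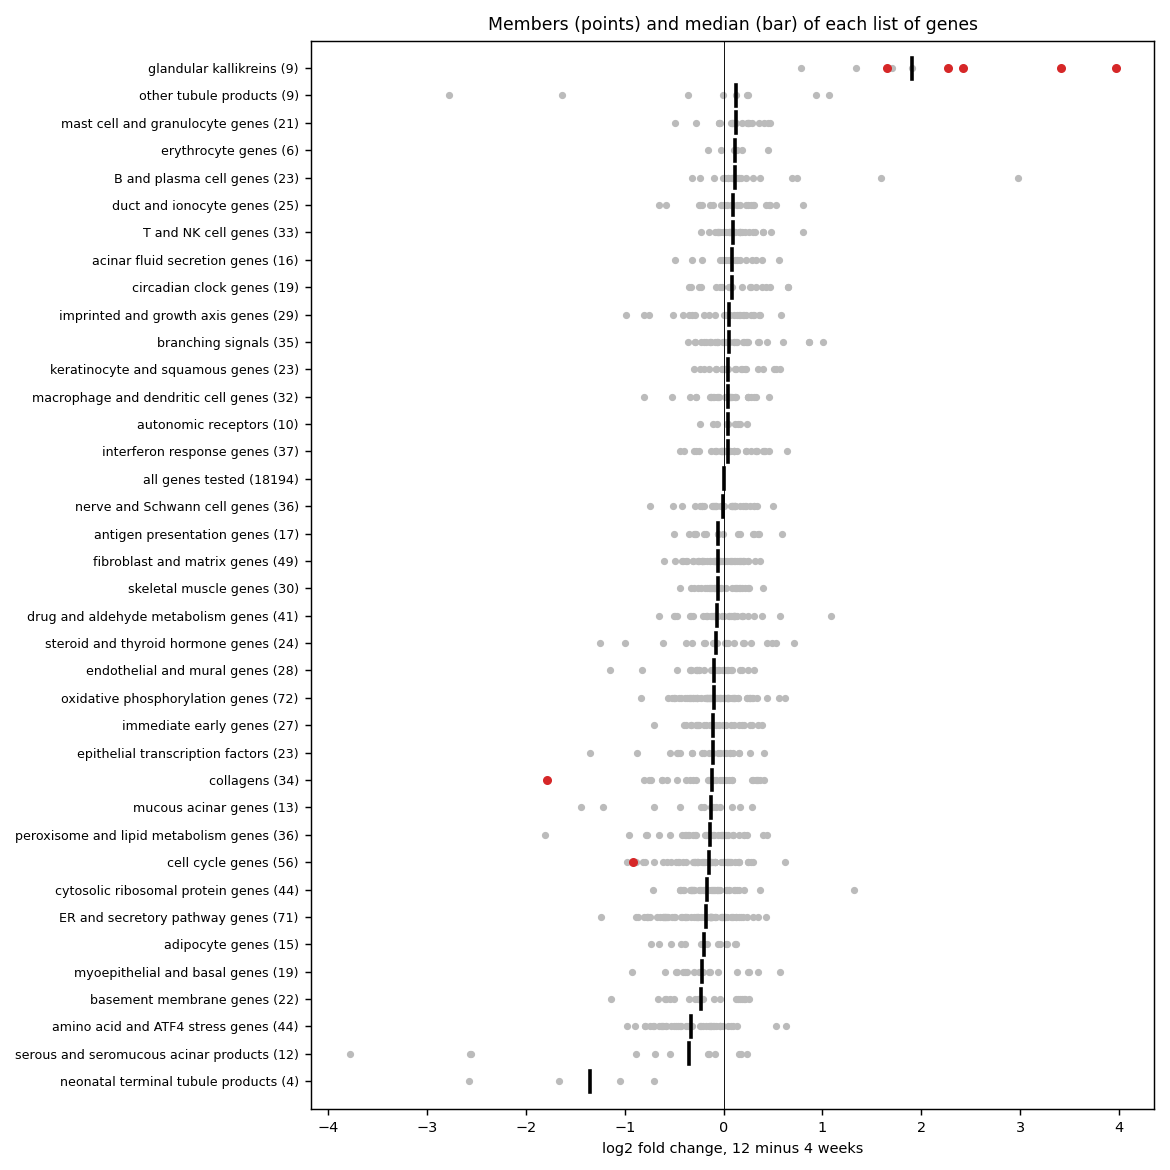
log2 fold change from 4 to 12 weeks (horizontal axis) of the measured members of 37 lists of genes, with 1 point per gene, a bar at the median and the number of measured genes in brackets. Red points passed the test, and the glandular kallikreins lie apart with a median of 1.90, against 0.01 for all genes tested.

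Besides the genes named so far, the 10 largest falls without overlap between the ages held Chst1, Gnptg, Folr1 and Mtx2, of which 0 passed. Chst1, a sulfotransferase of keratan sulfate, had 5.69, 5.53, 9.95, 5.51 and 10.85 at 4 weeks and 5.16, 5.20, 5.50, 5.33 and 5.21 at 12 weeks, with -2.23 (adjusted p = 0.425). Only mice 3 and 5 at 4 weeks were high, and the other 3 lay close to the mice at 12 weeks. Gnptg, a subunit of the enzyme that tags lysosomal proteins, had 5.56, 5.31, 5.42, 5.01 and 5.72 at 4 weeks and 4.24, 3.72, 4.22, 4.41 and 4.51 at 12 weeks, with -1.19 (adjusted p = 0.0861). Folr1, a folate receptor, and Mtx2, a protein of the outer mitochondrial membrane, had -1.001 and -0.98 (adjusted p = 0.0857 and 0.386).

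Within an array, the SD over genes was 1.68 ± 0.145 (SD, n = 5 mice) at 4 weeks and 1.64 ± 0.0273 at 12 weeks, and did not pass a two-sided exact permutation test (p = 0.706, also after adjustment over the 5 measures). These ages had been paired with their like mean spread of signal known. The result of that test was thus set in advance and is only a description. The brightest and dimmest deciles of genes had medians of -0.02 and 0.05 from 4 to 12 weeks. The 3' probe set of Gapdh exceeded the 5' one, a sign of RNA quality, by 2.37 ± 0.439 and 2.69 ± 0.233 (p = 0.198 by the same exact permutation test, adjusted p = 0.496). Genes varied more between the mice at 4 weeks, with a median SD of 0.276 against 0.209 at 12 weeks. The number of arrays limits the precision of all these values.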

How the data were processed

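The authors summarized each array by RMA in Expression Console and deposited log2 signals for 45101 probe sets, which were used as they are. Which arrays were normalized together is not given in the sources used here. Of the probe sets, 34958 carried 1 gene symbol, 932 several and 9211 none, and 34755 could be traced to a RefSeq gene. Of several probe sets of a gene, that of highest mean over the 20 arrays stood for it, which gave 18194 genes.

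The comparison was fitted with limma 3.58.1 in R 4.3.3 to the 20 arrays at 4 ages, which leaves 16 residual degrees of freedom and shares 1 estimate of the spread. Benjamini-Hochberg adjustment covered the 18194 genes, and genes with an adjusted p under 0.05 passed. Measures of single arrays were compared by exact permutation tests.

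Genes were named if they passed the test, if they were among the 10 largest rises or falls without overlap between the ages, if they were among the 4 lowest p-values of a list, or if they mark the tissue or a sex. Family members and a few genes chosen after their values were seen are also given. The arrays and the lists of genes were chosen with earlier results of these data known, and list counts are therefore descriptions.

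Alternatives were a fit to 10 arrays, median centring, cyclic loess, quantile normalization, averaged probe sets, single probe sets, removal of genes below the 40th percentile of signal, robust limma-trend, array weights, a replicate block, a covariate for the spread of signal and leaving out each mouse. Covariates from secretory products were chosen after seeing the data. Promoters were read from RefSeq tables of GRCm38.p6 and aligned globally.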

Additional observations from a re-analysis of the deposited data

Results flagged for a closer look

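In 202 groups of 5 mice, made of the named genes and array measures at 4 and 12 weeks, 26 held 1 mouse far from the other 4, by a gap to the next mouse of more than 0.71 of the whole range. About 5 in 100 groups are expected by chance, and genes share their mice, so the number cannot be judged against it. At 12 weeks 19 groups were marked and at 4 weeks 7.

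At 12 weeks, mouse 2 was high for Smr3a (gap of 0.761 of the range), Amy1 (0.835), Cst10 (0.89), Dnase1 (0.871) and the mean of Amy1, Cst10 and Smr3a (0.869). The same mouse was low for Klk1 (0.754), Klk1b16 (0.76) and Crisp3 (0.773). Its signal was 11.35 for Amy1 against 4.18 to 5.36 in the others, and 10.48 for Klk1b16 against 11.23 to 11.47.

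Mouse 3 at 12 weeks was high for Dcpp1 (0.841), Ifi213 (0.788) and Galnt12 (0.785) and low for Ccna2 (0.862), Shh (0.853) and Klrd1 (0.712). Mouse 1 at 12 weeks was high for Tcfl5 (0.874) and low for Clock (0.821). Mouse 5 at 12 weeks was high for Barx2 (0.758) and low for Ascl3 (0.744) and Trp63 (0.766).

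At 4 weeks, mouse 2 was low for Bpifa2 (0.902), with 8.56 against 12.77 to 13.23 in the others. Mouse 3 was high for Shh (0.763) and low for Col1a1 (0.744) and Aplnr (0.727). Mouse 5 was high for Folr1 (0.746) and low for Frzb (0.801), and mouse 4 was high for Atp6v1c2 (0.744).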

How the results depend on the processing

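The counts of 12 higher and 5 lower genes depended on the settings. Against these, array weights gave 56 and 21, a covariate for the spread of signal 78 and 32, each probe set on its own 25 and 8, quantile normalization 6 and 3, the filter at the 40th percentile 7 and 1, the mean of Amy1, Cst10 and Smr3a as a covariate 5 and 1, and the mean of Dcpp1 and Dcpp3 as a covariate 6 and 2. Cyclic loess gave 9 lower and the fit to 10 arrays 3 lower genes. When each mouse was left out in turn, 5 to 8 genes were higher and 1 to 2 lower, with 5 higher without mouse 2 at 4 weeks or mouse 4 at 12 weeks, and 2 lower only without mouse 4 at 4 weeks or mouse 5 at 12 weeks. Why these counts changed was not tested. With a replicate block 5 genes were higher and 1 lower. The replicate numbers did not pair the mice, as correlations of same-numbered mice of both ages lay between -0.21 and 0.15, and the loss of calls under the block does not speak of the effect. Klk1b16, Klk1b5, Klk1b21, Klk1b1 and Egfbp2 passed in all 12 other settings and all 10 fits with a mouse left out. Dusp4 passed in 10 of 11 other settings and in all 10 fits. The genes with 11 settings, Dusp4, Ifi207, Igkv8-30, Klk1b7-ps, Tcfl5, Tsen15 and Zfp612, were removed by the filter at the 40th percentile.

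Over 95 genes with fold changes in the text, 1865 of 2076 values under other settings kept their direction and side of the threshold, 158 lost the call, 50 gained it and 3 changed direction. The latter were Zfp612 by its second probe set (-0.26), Amy1 with the mean of Amy1, Cst10 and Smr3a as a covariate (0.55) and Dcpp3 with the mean of Dcpp1 and Dcpp3 as a covariate (0.67). Of 34 of these genes with more than 1 probe set, 14 had a probe set of opposite sign. List medians moved by more than the spread between mice in 25 of 836 cases. Expression was not measured in separated cells or glands, and 5 mice per age limit what could be called.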

Other observations

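The largest negative log2 fold changes of all genes, picked after their values were seen, belonged to genes that were high in some mice at 4 weeks. Obp1a, an odorant-binding protein, had signals of 3.91, 3.56, 13.37, 12.02 and 13.31 at 4 weeks and of 6.25, 5.77, 4.53, 5.41 and 3.08 at 12 weeks, with -4.23 (SE 1.66, limma adjusted p = 0.489). Scgb1b2, a secretoglobin, had 6.38, 6.84, 13.40, 12.46 and 13.39 at 4 weeks and 7.98, 7.21, 5.99, 6.54 and 5.85 at 12 weeks, with -3.78 (adjusted p = 0.363). Both were high in mice 3, 4 and 5 at 4 weeks, whereas mice 1 and 2 lay within the range of the mice at 12 weeks.

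Lcn11, a lipocalin, had 4.54, 4.80, 10.78, 5.54 and 12.11 at 4 weeks and 3.98, 4.75, 4.60, 4.33 and 3.85 at 12 weeks, with -3.25 (limma adjusted p = 0.367). Pnliprp1, a pancreatic lipase-related protein, had 4.79, 5.24, 11.33, 6.29 and 12.49 at 4 weeks and 5.13, 5.41, 5.77, 5.08 and 5.30 at 12 weeks, with -2.69 (adjusted p = 0.481). These were high in mice 3 and 5 at 4 weeks alone, the mice that also had high Chst1. The mice high in Amy1 and Cst10 at 4 weeks were 1, 4 and 5, and those high in Obp1a were 3, 4 and 5.

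On the higher side, 4 genes with large values that did not pass the test were also picked after their values were seen. Son, a protein of nuclear speckles, had 8.25, 7.93, 8.41, 5.24 and 7.48 at 4 weeks and 9.78, 9.99, 8.40, 9.55 and 9.26 at 12 weeks, with 1.93 (limma adjusted p = 0.311). Sfpq, a splicing factor of paraspeckles, had 1.67 (adjusted p = 0.454), Pabpn1, the nuclear poly(A)-binding protein, 1.57 (adjusted p = 0.242) and Meis1, a homeobox factor, 1.34 (adjusted p = 0.225). Mouse 4 at 4 weeks was the lowest of the 10 mice for Son, Sfpq, Pabpn1 and Meis1.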
